A study of Mus musculus with 10 samples.

Results

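The proteasome and the ubiquitin system break down proteins inside cells, and their genes were followed here in mouse macrophages of the peritoneum and of a tumour. The genes were chosen by name, from the features of a cDNA array with a single gene symbol. Names beginning with Psma to Psmg and a digit gave the proteasome. Names beginning with Ube, Usp (except Usp18), Uba, Uch, Cul or Fbx, and the ubiquitin genes themselves, gave the ubiquitin system. The choice held 122 of 9596 features and 107 of the 6795 named genes, of which 34 were proteasome genes and 72 ubiquitin system genes. The remaining gene, Psmc3ip, matches the spelling but encodes a recombination factor, and it was kept out of both sets. No ubiquitin gene was among the matches. The proteasome genes were 5 of the alpha ring, 7 constitutive subunits of the beta ring and 2 immunoproteasome subunits. The regulatory particle had 4 ATPases and 9 other subunits or associated factors (the assembly chaperones Psmd5 and Psmd10 among them). The rest were 4 activators and inhibitors, and 3 assembly chaperones named Psmg. The ubiquitin system genes were 1 E1 enzyme, 21 E2 enzymes (Ube2d-ps, a pseudogene, among them), the chain-elongating ligase Ube4b, 23 Usp and 2 Uch deubiquitinases, 5 cullins and 19 F-box proteins.

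Proteins are marked for breakdown by chains of ubiquitin. An E1 enzyme activates ubiquitin, an E2 enzyme carries it, and an E3 ligase, such as the complexes of a cullin scaffold with an F-box protein that binds the substrate, passes it on, while deubiquitinases remove it. The marked protein is unfolded by the regulatory particle of the proteasome and cut inside the barrel of alpha and beta rings. In macrophages exposed to interferon, the catalytic subunits Psmb8, Psmb9 and Psmb10 can take the place of the constitutive ones to form the immunoproteasome, whose peptides are loaded on MHC class I, and ubiquitin chains carry the signal from Toll-like receptors to NF-kB.

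The RNA came from C57/6N mice of 8 weeks. Peritoneal exudate cells (PEC), named peritoneal macrophages in the labels, and tumour-associated macrophages (TAM), taken 3 weeks after tumour implantation, were kept as adherent cultures, untreated or after lipopolysaccharide (LPS) at 100 ng/mL for 4 hours, LPS being a bacterial cell wall component sensed by Toll-like receptors. Each of the 10 arrays was hybridised with the RNA of 2 conditions. Untreated TAM were set against untreated PEC on 4 arrays (TAM-b, TAM-2R, TAM-3, TAM-8), PEC with LPS against PEC on 2 (PEC1 and PEC2), TAM with LPS against TAM on 2 (TAM-trial and TAM-16), and TAM with LPS against PEC with LPS on 2 (TAM1 and TAM7). The labels name neither the tumour nor a purification of the cells beyond adherence. They also leave unsaid whether arrays of 1 comparison had RNA of different mice or cultures, so the spread that p-values measure may be technical. The values are log ratios, taken as log2, of the condition named first over the one named second. Log ratios carry no level, so the cell types could not be checked by the level of their markers, and the small number of arrays limits the precision of each mean.

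Every direction is likely rather than certain, since the dyes are unnamed. Channel 2 was read over channel 1 because 26 of 29 measured genes known to be induced by LPS were then above 0 on both PEC1 and PEC2, with medians of 1.87 and 2.98. On TAM-2R and TAM1 the labels swap the channels, and both were turned. PEC1 and PEC2 had the same channel order, as had TAM-trial and TAM-16. In those comparisons a dye effect cannot be told apart from an effect of LPS. After turning, TAM1 correlated with TAM7 at r = 0.293 across all features, which are not independent replicates, and TAM-2R with the other 3 arrays of untreated cells at r from 0.036 to 0.101. For some of the results that hang on these 2 arrays the other coding is given as well. A value given without it may not hold under both codings. PEC1 was printed in version v1p1, TAM-8, TAM7 and TAM-trial in version v9p2, and the other 6 in version v3p6. Over the 14 genes with more than 1 feature, the features differed in sign in 7 to 10 genes in each comparison, so a mean over features can join spots that measured different things. The beta ring gene Psmb1 is an example, with features at 2.27 and 0.16 on PEC1 and at 1.03 and -1.90 on PEC2.

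Proteasome genes were mostly above 0 on PEC1 and mostly below 0 on TAM1, TAM7, TAM-8 and TAM-trial. The median log2 ratio of the 34 proteasome genes was 1.33 on PEC1 and 0.31 on PEC2, -1.01 on TAM-trial and 0.04 on TAM-16, -0.87 on TAM1 and -1.20 on TAM7, and -0.14, 0.34, 0.26 and -0.59 on the untreated arrays TAM-b, TAM-2R, TAM-3, TAM-8. The median of the 72 ubiquitin system genes stayed between -0.24 and 0.24 on the same arrays, and that of all 8905 genes and features between -0.20 and 0.06. The proteasome medians also went with the array print. All 3 arrays of print v9p2 (TAM-8, TAM7, TAM-trial) were at -0.59 or below, and PEC1, the only v1p1 array, was the highest. Of the 6 v3p6 arrays, TAM1 alone was outside -0.14 to 0.34. How far the print sets these medians was not tested. By sign, 33 of 34 proteasome genes were above 0 on PEC1 and 24 on PEC2, 1 on TAM1 and 4 on TAM7, 8 on TAM-trial and 20 on TAM-16, and 15, 24, 22 and 5 on the 4 untreated arrays in the order above. No gene of either set passed the test over all genes in any comparison (limma, Benjamini-Hochberg adjustment over 8905 genes and features). The lowest adjusted p was 0.161 for untreated TAM against PEC, 0.258 for LPS in PEC, 0.827 for LPS in TAM and 0.347 for TAM against PEC with LPS. The share of all genes and features past that threshold was 0.46%, 0.0112%, 0.0% and 0.0674% in the same order. Values and unadjusted p-values are therefore given as a description of these arrays.

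**Figure D1:**
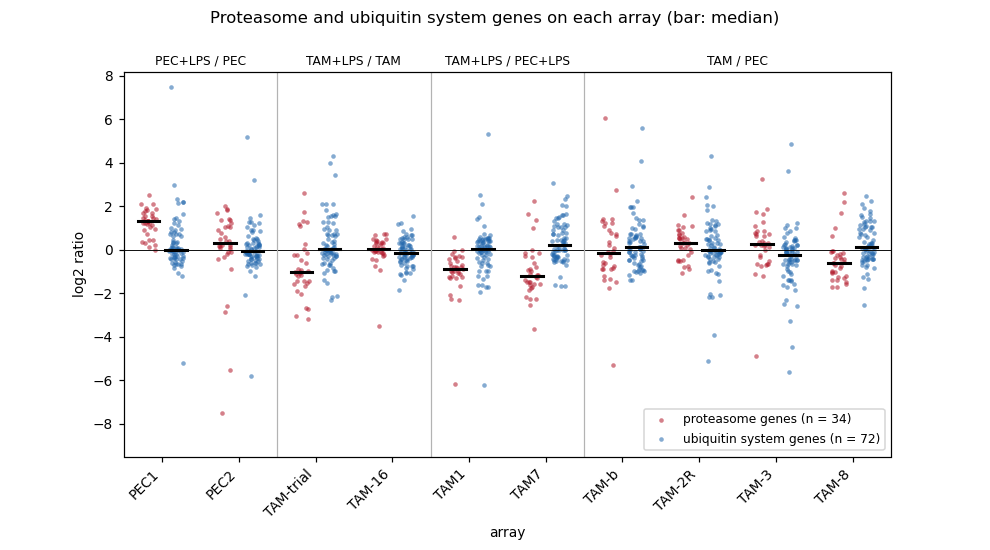
Log2 ratio (y axis) of each proteasome gene (n = 34) and each ubiquitin system gene (n = 72) on each of the 10 arrays (x axis), with the median of each set as a bar. The proteasome medians run from 1.33 on PEC1 to -1.20 on TAM7, and the ubiquitin system medians lie between -0.24 and 0.24.

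Macrophage markers moved with the proteasome genes. Of 24 listed markers 15 were measured, and their median was 1.16 on PEC1, 1.22 on PEC2, -1.67 on TAM-trial, 0.15 on TAM-16, -1.49 on TAM1 and -1.58 on TAM7. On the untreated arrays it was -1.25 on TAM-b, 0.17 on TAM-2R, 0.08 on TAM-3 and -1.24 on TAM-8. The 5 arrays with markers below 0 are the 5 with proteasome medians below 0. Cd68, a lysosomal glycoprotein of macrophages, was at 1.88 and 1.42 on PEC1 and PEC2. On TAM1 and TAM7 it was at -3.68 and -3.33, the lowest mean of the 15 markers there. In that comparison 12 of 15 markers had means below 0 and 3 above 0, with Aif1 at 2.35 and 0.49. The part of these markers in the results was not tested, and in bulk RNA fewer cells of a type and less RNA per cell cannot be told apart.

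**Figure D2:**
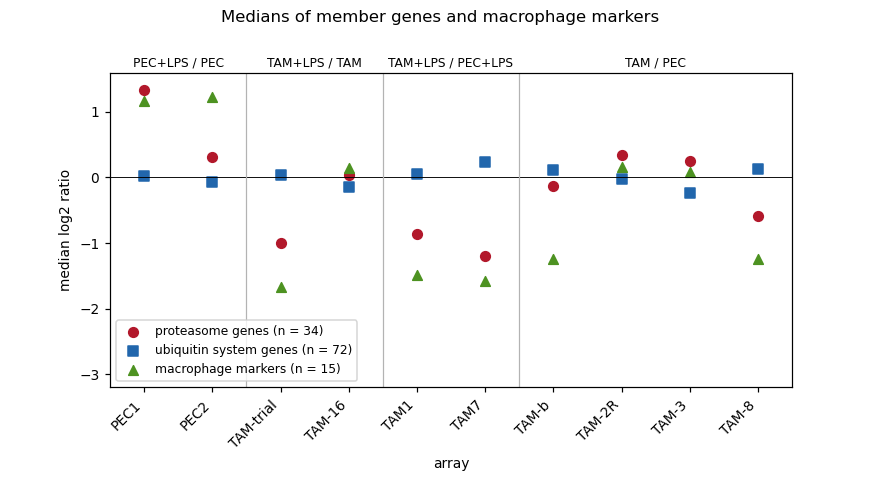
Median log2 ratio (y axis) of the proteasome genes (circles, n = 34), the ubiquitin system genes (squares, n = 72) and the macrophage markers (triangles, n = 15) on each array (x axis). Marker and proteasome medians share their sign on each of the 10 arrays, while the ubiquitin system medians stay near 0.

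With LPS, PEC had higher values for most of the proteasome. The 34 genes had a median log2 ratio of 0.795, with 28 above 0 and 24 above 0 on both arrays, where 31.4% of all genes and features were. An unadjusted p under 0.05 with a higher value was reached by 11 of the 34 proteasome genes and 6 of the 72 ubiquitin system genes, against a background of 5.73%. The question here was how peritoneal macrophages respond to LPS. The constitutive beta ring had a median of 1.43, with 7 of 7 members above 0. Psmb6, a catalytic subunit that cuts after acidic residues, was at 2.53 on PEC1 and 1.998 on PEC2. Both arrays were thus well above 0, and the mean was 2.26 ± 0.38 (SD, n = 2; 4.81-fold; adjusted p = 0.258). Psmb5, the subunit that cuts after hydrophobic residues, was at 1.14 and 1.35, and Psmb7, which cuts after basic residues, at 1.92 and 1.07. Among the structural beta subunits Psmb4 was at 2.11 and 1.37, Psmb2 at 1.82 and 1.04, and Psmb3 at 0.46 and 0.42. The values of catalytic and structural subunits thus overlapped. In the lower direction 2 proteasome genes (Psmf1 and Psmg1) and 1 ubiquitin system gene (Usp2) had an unadjusted p under 0.05, against a background of 2.41%.

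The immunoproteasome subunits and the interferon-inducible activator were at like values. Psmb8 was at 2.10 on PEC1 and 1.42 on PEC2 (1.76 ± 0.48, SD, n = 2; 3.40-fold; adjusted p = 0.411), and Psmb10 at 1.45 and 1.89 (1.67 ± 0.31, SD, n = 2; adjusted p = 0.427). Psmb9 is not analysed here. Psme1, the alpha subunit of the activator that opens the barrel, was at 1.79 and 1.68, 2 nearly equal values with a mean of 1.73 ± 0.08 (SD, n = 2; 3.32-fold; adjusted p = 0.386). The feature named Psme2b, a near copy of the activator's beta subunit gene Psme2 that a cDNA spot may not tell apart from it, was at 1.70 and 1.85. Psme3, the subunit of a nuclear activator, differed between the arrays, at 1.44 and -0.11. The inhibitor Psmf1 was near 0 on PEC1 (0.11) and far below it on PEC2 (-5.53).

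In the regulatory particle, which recognises and unfolds the substrate, most values were above 0. The medians were 0.78 for the ATPases and 0.77 for the other subunits and associated factors. Psmd4, a receptor for ubiquitin chains, was at 1.86 and 1.23 (1.54 ± 0.45, SD, n = 2; 2.92-fold; adjusted p = 0.407). The 4 ATPases, which drive unfolding, were above 0 on both arrays, with Psmc4 at 1.21 and 1.08 and Psmc1 at 1.23 and 0.52. Of the 9 other subunits and associated factors 8 were above 0 on both arrays, from Psmd14, the deubiquitinase of the particle, at 0.29 and 0.17, to Psmd4. Psmd5, a chaperone of its assembly, was at 0.21 and -0.86. The alpha ring, which gates the barrel, was split, because Psma2 (1.33 and -2.58), Psma6 (0.95 and -2.85) and Psma7 (1.36 and -0.35) were above 0 on PEC1 and below 0 on PEC2. Psma4 was the 1 alpha subunit above 0 on both, at 1.47 and 0.92. The chaperone Psmg1 differed most between these arrays of all members, at 0.37 on PEC1 and -7.49 on PEC2.

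The values were higher on PEC1, of print v1p1, than on PEC2, of print v3p6, for the set as a whole. Their medians were 1.33 and 0.31, and the count of 11 was 3 without PEC1 and 8 without PEC2, where the lone array is assumed to vary like the others. It was 7 with TAM-2R and TAM1 read the other way, called the other coding here, and 0 within print v3p6, which holds PEC2 alone for this comparison. Of the other genes of antigen supply, Tap1, the peptide transporter into the endoplasmic reticulum, was at 1.65 and 1.43, and B2m, the light chain of MHC class I, at 2.30 and 1.62. Of the 6 measured genes of that list, 5 had means above 0 and none passed the adjusted test. Macrophage markers were above 0 for 14 of 15 genes on each array, and their part in the result was not tested.

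**Figure D3:**
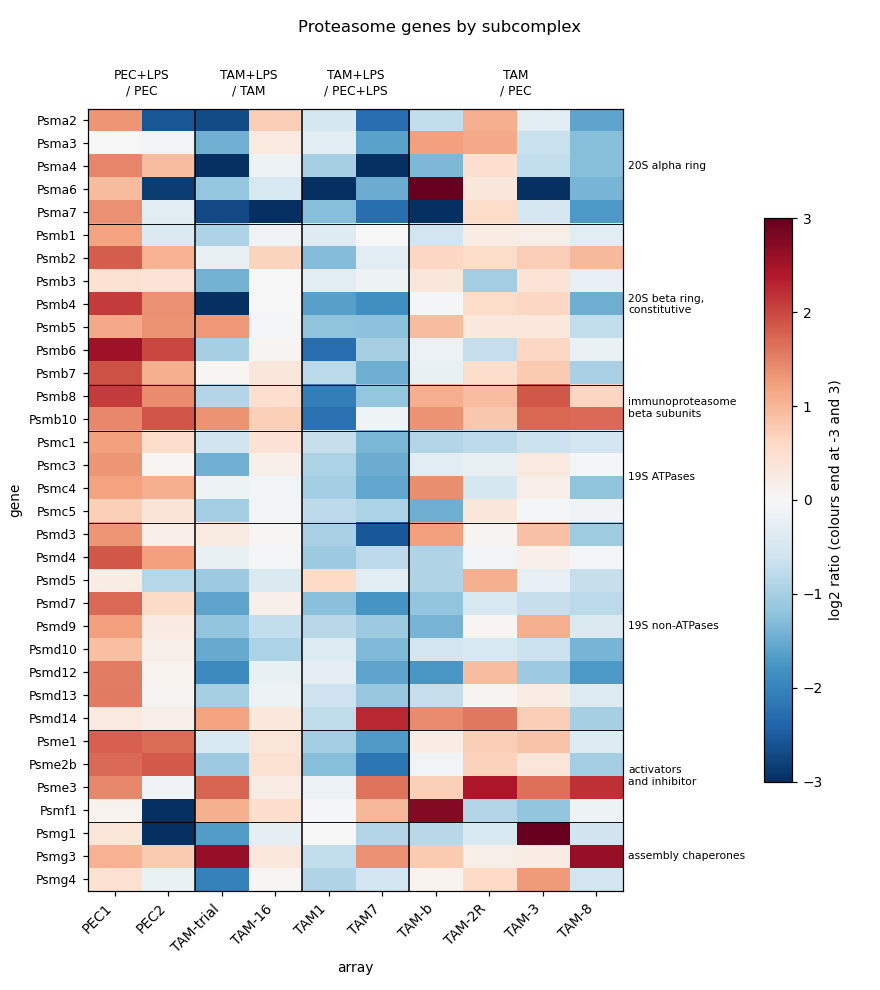
Log2 ratios of the 34 proteasome genes (rows, grouped by role) on the 10 arrays (columns, grouped by comparison), with red above 0 and blue below 0 as the colour bar gives. The constitutive beta ring is red for 7 of 7 genes on PEC1 and 6 of 7 on PEC2 (Psmb1 is below 0). It is below 0 for 7 of 7 on TAM1 and TAM7, though Psmb1 is at -0.01 on TAM7. The alpha ring differs between PEC1 and PEC2.

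The promoters of 4 of these genes, picked by hand, are shown. The 4 genes were above 0 on both arrays of LPS in PEC. Their promoters hold matches to motifs of factors known to regulate proteasome genes. Psmb3, Psmb5, Psmd9 and Psmd12 met the same conditions and are not shown. The sequences are those of RefSeq for build GRCm38.p6, from 250 bases before the start of the gene to 50 after it, 5′ to 3′ on the strand of the gene, with the motif match in capitals.
Psmb8 (chr17:34197945-34198244, + strand): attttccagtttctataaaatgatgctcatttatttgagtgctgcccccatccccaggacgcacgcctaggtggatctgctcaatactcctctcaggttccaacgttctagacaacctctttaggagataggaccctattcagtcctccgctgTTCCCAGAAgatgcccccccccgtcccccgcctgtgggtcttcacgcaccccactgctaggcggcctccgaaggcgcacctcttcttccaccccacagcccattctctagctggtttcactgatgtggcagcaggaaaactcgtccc
Psme1 (chr14:55578244-55578543, + strand): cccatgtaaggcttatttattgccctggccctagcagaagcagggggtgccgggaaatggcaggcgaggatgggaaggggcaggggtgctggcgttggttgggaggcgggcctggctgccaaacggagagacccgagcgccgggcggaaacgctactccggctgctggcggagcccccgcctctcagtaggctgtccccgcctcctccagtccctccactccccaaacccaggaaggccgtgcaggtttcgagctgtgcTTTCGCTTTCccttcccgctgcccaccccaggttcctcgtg
Psmb6 (chr11:70525107-70525406, + strand): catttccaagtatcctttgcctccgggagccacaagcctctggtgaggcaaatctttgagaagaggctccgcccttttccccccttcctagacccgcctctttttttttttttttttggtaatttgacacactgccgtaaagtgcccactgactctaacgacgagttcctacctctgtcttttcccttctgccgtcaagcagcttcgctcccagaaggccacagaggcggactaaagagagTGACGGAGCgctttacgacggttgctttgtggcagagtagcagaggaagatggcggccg
Psmd4 (chr3:95042565-95042864, - strand): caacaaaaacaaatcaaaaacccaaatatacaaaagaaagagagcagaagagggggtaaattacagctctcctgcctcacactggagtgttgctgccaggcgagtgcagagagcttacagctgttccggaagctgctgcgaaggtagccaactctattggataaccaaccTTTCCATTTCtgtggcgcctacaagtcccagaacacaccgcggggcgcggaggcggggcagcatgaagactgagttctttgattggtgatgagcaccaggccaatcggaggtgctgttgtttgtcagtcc
Both strands were searched for GAAANNGAAA, a form of the site of interferon regulatory factors, for TTCNNNGAA, that of STAT factors, and for TGACNNNGC, the core of the antioxidant response element bound by Nfe2l1, which drives proteasome genes. A promoter was on hand for 28 of 34 proteasome genes and 59 of 72 ubiquitin system genes. The first motif was in the promoters of Psme1, Psmd4, Psmb3, Psmd9 and Psmg4, which are 5 of 28, in 1 of 59 of the ubiquitin system (Cul1), and in 3.52% of 27025 mouse promoters of that length. The second was in 2 of 28 (Psmb8 and Psmg1), in 2 of 59 and in 8.37% of all. The third was in 4 of 28 (Psmb5, Psmb6, Psmd9 and Psmd12), in 15 of 59 and in 12.4% of all. A match describes letters and not a bound site. Psmb4, whose promoter held none of the 3 motifs in this window, was at 2.11 and 1.37 with LPS in PEC, while Psmg4, with the first motif, was at 0.45 and -0.19.

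In TAM, the response of the proteasome to LPS differed between the arrays. The median of the 34 genes was -0.53 over both arrays, at -1.01 on TAM-trial and 0.04 on TAM-16, so it rested on TAM-trial. TAM-trial was of print v9p2 and TAM-16 of v3p6, so a difference of print cannot be told apart from one between the RNA samples. The median of all genes and features was -0.127 in this comparison, and with each array centred the proteasome median was -0.43. Of the 34 proteasome genes 7 were above 0 on both arrays (background 22.4%) and 13 below 0 on both (background 33.7%). An unadjusted p under 0.05 was reached by 0 proteasome genes with a higher value (background 0.898%) and by 2 with a lower one (background 4.68%), Psma7 and Psmd10. Psma7, an alpha subunit, was at -2.70 on TAM-trial and -3.52 on TAM-16 (-3.11 ± 0.58, SD, n = 2; 8.64-fold lower; adjusted p = 0.827). Psmd10, an assembly chaperone also known as gankyrin, was at -1.51 and -0.94.

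Psma4, Psmd12 and Psmb4 were low on TAM-trial and near 0 on TAM-16. Psma4 was at -3.05 and -0.16, and Psmd12, a subunit of the lid, at -1.91 and -0.22. Psmb4 had the lowest value of the beta ring on TAM-trial (-3.16) and was at 0.00 on TAM-16. Psmb10 was above 0 on both arrays, at 1.34 and 0.71 (1.03 ± 0.45, SD, n = 2; adjusted p = 0.827), and so were Psme3 at 1.75 and 0.21 and the chaperone Psmg3 at 2.61 and 0.32. Psmb8 was at -0.89 and 0.51, and Psme1 at -0.48 and 0.35, so these groups straddled 0. Psmg3 was also at 2.61 on TAM-8 and 1.38 on TAM7, which share print v9p2 with TAM-trial. Macrophage markers were below 0 for 15 of 15 genes on TAM-trial and above 0 for 9 of 15 on TAM-16, with their part not tested.

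The responses of TAM and PEC to LPS were compared in the same fit, and no member passed the adjusted test. The difference, TAM minus PEC, had a median of -1.17 over the 34 proteasome genes, -0.01 over the 72 ubiquitin system genes and -0.11 over all genes and features. With an unadjusted p under 0.05, 10 of 34 proteasome genes and 4 of 72 ubiquitin system genes had a lower response in TAM, against a background of 5.97%. In the other direction it was 0 of 34 and 1 of 72 (Usp47), against 0.898%. Psmb6 had a mean response of 2.26 in PEC and -0.46 in TAM, a difference of -2.72 (SE 0.71, adjusted p = 0.719). Psmd4 had 1.54 in PEC and -0.13 in TAM, Psme1 1.73 and -0.06, and Psmb8 1.76 and -0.19. PEC1 (v1p1) and TAM-trial (v9p2) were of other prints than PEC2 and TAM-16 (both v3p6), and the part of the print was not tested. The count of 10 was 1 without PEC1, 1 without TAM-trial, 0 within print v3p6, 3 with the other coding, and 17 in a loop fit that draws on all arrays.

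**Figure D4:**
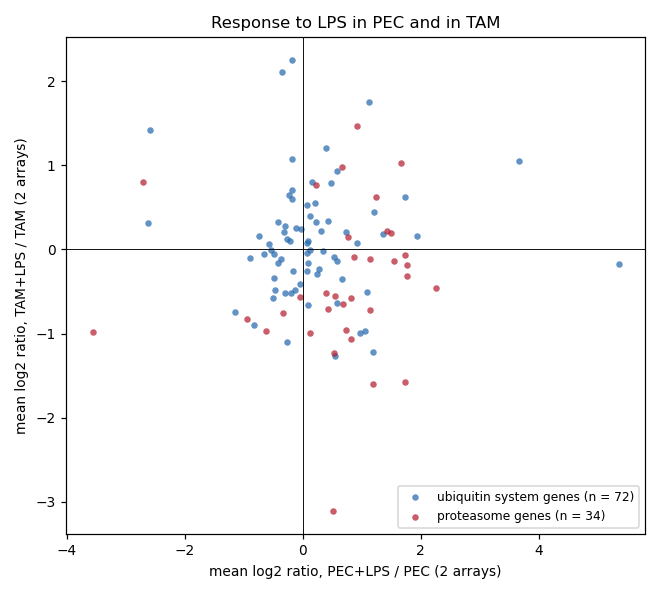
Mean log2 ratio with LPS in TAM (y axis, 2 arrays) against that in PEC (x axis, 2 arrays) for each proteasome gene (n = 34) and ubiquitin system gene (n = 72). Most proteasome genes lie to the right of 0 and below 0, with 28 of 34 above 0 in PEC and 25 of 34 below 0 in TAM. Of all 8905 genes and features 4281 were above 0 in PEC and 5050 below 0 in TAM.

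Set directly against PEC with LPS, TAM with LPS had lower values for nearly the whole proteasome. The median of the 34 genes was -1.002, and 29 were below 0 on both arrays, where 28.2% of all genes and features were, against 0 above 0 on both (background 32.9%). An unadjusted p under 0.05 with a lower value was reached by 15 of 34 proteasome genes and 5 of 72 ubiquitin system genes, against a background of 6.92%. In the other direction it was 0 and 1, against 2.08%. TAM1 and TAM7 had opposite channel orders, so a dye effect equal on both would cancel in their mean. They were of different prints, v3p6 and v9p2, so equal dye effects are not assured. This comparison shares the condition PEC with LPS with the one above, on other arrays, so the genes' values are given for their own sake.

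All parts of the barrel were included. Psmb6 was at -2.29 on TAM1 and -0.98 on TAM7 (-1.64 ± 0.92, SD, n = 2; 3.11-fold lower; adjusted p = 0.35). Psmb5 was at -1.20 and -1.24, Psmb7 at -0.80 and -1.46, and Psmb4 at -1.64 and -1.85. The 7 constitutive beta subunits were below 0 on both arrays, with a median of -1.13. Among them Psmb1 was at -0.39 and -0.01, and its 2 features were at -0.89 and 0.11 on TAM1 and at -1.56 and 1.54 on TAM7. Psma4 had -0.98 and -3.65 (-2.32 ± 1.88, SD, n = 2; adjusted p = 0.404). Psma6 had the lowest mean of all members as TAM1 was read, at -6.17 on TAM1 and -1.50 on TAM7, but was at 2.34 with the other coding and at 0.16 by the sum of the other 3 comparisons. In the reading used, the 5 alpha subunits were below 0 on both arrays.

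The immune forms had means below 0 too. Psmb8 was at -2.06 on TAM1 and -1.16 on TAM7 (-1.61 ± 0.64, SD, n = 2; 3.06-fold lower; adjusted p = 0.357). Psmb10 was at -2.24 and -0.13, so its mean rested on TAM1. Psme1 was at -1.05 and -1.70 (-1.38 ± 0.46, SD, n = 2; adjusted p = 0.371) and Psme2b at -1.28 and -2.17. Of the regulatory particle, Psmd3, a lid subunit, was at -0.97 and -2.54, Psmd7, the partner of Psmd14, at -1.25 and -1.77, and Psmd4 at -1.10 and -0.79. The 4 ATPases had means from -1.29 to -0.865. The members without 1 sign were Psmd14 (-0.77 and 2.26), Psmd5, Psme3 (-0.17 and 1.63), Psmf1 and Psmg3.

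These lower values depend on how TAM1 was read. With the other coding the median of the 34 genes was -0.19 and the count of 15 became 0. It was 5 without TAM1, 3 without TAM7, 4 with 1 dye term per print and 2 within print v3p6, which keeps TAM1 alone. The sum of the other 3 comparisons, which reaches the same contrast by another path, gave a proteasome median of -1.28 beside the measured -1.002. That sum uses arrays that disagreed and were of different prints. Their proteasome medians were 1.33 on PEC1 and 0.31 on PEC2, and -1.01 on TAM-trial and 0.04 on TAM-16. For single genes the paths were closer for Psme1 (-1.44 beside -1.38) than for Psmb8 (-0.83 beside -1.61), and for Psmb10 they had opposite signs (0.75 beside -1.19). With the other coding Psmb6 was at 0.65, Psmb8 at 0.45 and Psmb10 at 1.05. Psmb5 was then at -0.02, Psmd4 at 0.16, Psme1 at -0.33 and Psma4 at -1.33. As TAM1 was read, Tap1 was at -1.63 and -1.51 and B2m at -1.60 and -3.75 on TAM1 and TAM7, the lowest means of the 6 measured genes of antigen supply. The median of those 6 means was -0.62, with 5 below 0 and 1 above (Erap1, at -0.50 and 1.11). Macrophage markers were below 0 for 13 of 15 genes on TAM1 and 11 of 15 on TAM7, with their part not tested.

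**Figure D5:**
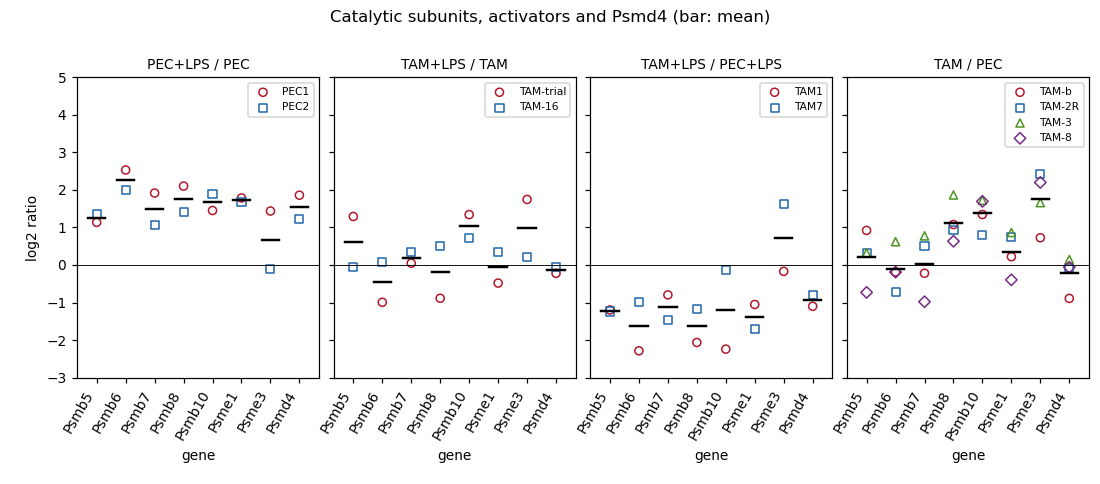
Log2 ratio (y axis) of the catalytic subunits, the activators Psme1 and Psme3, and Psmd4 (x axis) on each array, 1 panel for each comparison, with the mean as a bar. The catalytic subunits lie above 0 on PEC1 and PEC2 and below 0 on TAM1 and TAM7, and Psmb8, Psmb10 and Psme3 lie above 0 on all 4 arrays of untreated cells.

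Before LPS, the proteasome of TAM and PEC had no common direction, and the immunoproteasome subunits stood higher in TAM. The median of the 34 genes was -0.05, with 15 above 0 and 19 below, and it was 0.28 without TAM-8, which is also the value within print v3p6, and -0.21 without TAM-3. An unadjusted p under 0.05 was reached by 4 proteasome genes with a higher value in TAM (background 6.57%) and by 2 with a lower one (background 7.74%). Above 0 on all 4 arrays were 5 proteasome genes and 5 ubiquitin system genes, where 8.77% of all genes and features were. The question here was what sets TAM apart from PEC without a stimulus.

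Psmb10 was at 1.35 on TAM-b, 0.80 on TAM-2R, 1.73 on TAM-3 and 1.70 on TAM-8. All arrays were above 0, with a mean of 1.39 ± 0.43 (SD, n = 4; 2.62-fold; adjusted p = 0.168). Psmb8 was at 1.08, 0.92, 1.87 and 0.63 on the same arrays, likewise above 0 on each (1.12 ± 0.53, SD, n = 4; 2.18-fold; adjusted p = 0.221). The constitutive subunits that these replace did not share the pattern, for Psmb5 was at 0.92, 0.31, 0.32 and -0.73 and Psmb7 at -0.22, 0.52, 0.78 and -0.98. Psme3 was at 0.73, 2.42, 1.66 and 2.20 (1.75 ± 0.75, SD, n = 4; 3.37-fold; adjusted p = 0.161). Psmb2 was between 0.56 and 0.98 on the 4 arrays (0.72 ± 0.19, SD, n = 4; adjusted p = 0.333). The interferon-inducible activator gene Psme1 was at 0.22, 0.74, 0.87 and -0.40. Correction for the place of a feature on the array left Psmb8 at 1.24 but lowered Psmb10 to 0.76 and Psme3 to 0.78, and the other coding of TAM-2R and TAM1 gave 0.66, 0.99 and 0.54.

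On the lower side, the ATPase gene Psmc1 was at -0.87, -0.79, -0.66 and -0.58, close together (-0.72 ± 0.13, SD, n = 4; adjusted p = 0.319). Psmd10 was between -1.40 and -0.48 (-0.77 ± 0.42, SD, n = 4; adjusted p = 0.309), and Psmd7 between -1.19 and -0.49. These 3 were the only proteasome genes below 0 on all 4 arrays, where 10.8% of all genes and features were. Psma7 was at -5.27 on TAM-b and between -1.72 and 0.56 on the others. Macrophage markers were below 0 for 11 of 15 genes on TAM-b and 10 of 15 on TAM-8. The means of other marker lists had a median of 0.50 for fibroblasts and stroma (12 of 16 above 0), 0.88 for neutrophils (7 of 10), 0.75 for proliferation (13 of 18), -0.45 for B and plasma cells (3 of 7) and -0.13 for T and NK cells (5 of 12), and their part in the values of Psmb8, Psmb10 and Psme3 was not tested.

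In the ubiquitin system, the E2 enzymes mostly had values above 0 with LPS in PEC. Their median there was 0.53, with array medians of 0.71 and 0.30. Above 0 were 15 of 21, beside 4281 of all 8905 genes and features. In TAM against PEC with LPS the E2 median was -0.01, with array medians of -0.22 and -0.23. Ube2d3, an E2 enzyme that works with many ligases, was at 1.35 and 1.07 on PEC1 and PEC2 and at -1.22 and -1.64 on TAM1 and TAM7 (-1.43 ± 0.30, SD, n = 2; 2.70-fold lower; adjusted p = 0.363). Ube2s, which extends chains for the anaphase-promoting complex, was at 0.95 and 1.45 and at -1.93 and -1.68 on the same arrays (-1.80 ± 0.18, SD, n = 2; 3.49-fold lower; adjusted p = 0.347). Both were thus on the proteasome's side in each of these comparisons as TAM1 was read. With the other coding Ube2s was at 0.13 and Ube2d3 at -0.21 in TAM against PEC with LPS. Ube2h was at 0.94 and 1.23 on PEC1 and PEC2 as a mean of 2 features, of which 1 was above 1.5 on both arrays and the other at -0.28 and 0.95.

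The E2 pair that builds the chains of NF-kB signalling had opposite signs. Ube2v1, the partner without catalytic activity, was at 2.19 and 1.27 with LPS in PEC (1.74 ± 0.65, SD, n = 2; adjusted p = 0.498), and Ube2n, the catalytic one, at -0.72 and -0.25. The E1 enzyme Uba6 was at -0.53 and -0.54 there and at 0.51 and 0.89 on TAM1 and TAM7. With LPS in TAM, Ube2d2a was at -2.17 and -0.37 and Ube2s at -2.31 and -0.14. Ube2o, a large enzyme that joins E2 and E3 activity, was at 3.99 on TAM-trial and 0.22 on TAM-16, so its mean of 2.11 rested on 1 array. The ligase Ube4b was at -0.20 and -2.07 with LPS in PEC.

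The remaining E2 enzymes of the panel were less uniform. Ube2l3, which serves ligases of the RBR type, was at 0.71 and 0.63 with LPS in PEC, at -0.98 and -1.25 on TAM1 and TAM7, and at -1.38 and 0.67 with LPS in TAM. Ube2d1 was near 0 with LPS in PEC (0.09 and 0.10) and at -0.96 and -0.55 on TAM1 and TAM7. With the other coding Ube2l3 was at -0.14 and Ube2d1 at 0.20 in TAM against PEC with LPS. Ube2c, the E2 enzyme that starts chains in mitosis, was at 4.09 on TAM-b and between -0.41 and 0.79 on the other untreated arrays. Ube2d3 was below 0 on all 4 of these, from -1.33 to -0.12. The 3 features of Ube2k were at -0.71, -0.49 and 6.16 on PEC1, and so its mean there (1.65) came from 1 spot.

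The cullins and F-box proteins held the highest single value of all members, and their arrays often disagreed. Cul1, the scaffold of the ligases with F-box proteins, was at 7.51 and 3.21 with LPS in PEC (5.36 ± 3.04, SD, n = 2; adjusted p = 0.455) but ran from -1.38 to 5.58 in untreated TAM against PEC. Fbxo33 was at 2.15 and 5.17 and Fbxo31 at 2.97 and 0.91 with LPS in PEC, and Fbxo21 was at -0.66 and -0.98 and Fbxo2, a receptor of glycosylated substrates, at -1.22 and -0.27. The medians of the 5 cullins and the 19 F-box proteins were 0.13 and -0.13 in that comparison. Cul5 was at -1.08 and -1.11 with LPS in TAM (-1.09 ± 0.02, SD, n = 2; adjusted p = 0.827). Fbxl18 was at 5.32 on TAM1 and 1.03 on TAM7 (3.18 ± 3.03, SD, n = 2; adjusted p = 0.459), at -2.14 with the other coding, and at 3.46 and 0.05 with LPS in TAM. Fbxl7 was below 0 on all 4 arrays of untreated cells, from -5.60 on TAM-3 to -0.24 on TAM-8, and Fbxl17 above 0, from 0.19 to 1.19.

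The Usp deubiquitinases had a median near 0 with LPS in PEC (-0.03 for 23 genes). In TAM against PEC with LPS it was 0.42, with 16 of 23 above 0. Of all 8905 genes and features 4964 were above 0 there. On both arrays 10 of 23 were above 0, where 32.9% of all genes and features were. Usp2 was at -5.20 on PEC1 and -0.03 on PEC2, a difference of the arrays rather than a shared value. Uchl1, of the other deubiquitinase family, was at -1.04 and -0.72. Usp7, which acts on Mdm2 and p53, was at 2.25, 1.21, 0.03 and 1.49 in untreated TAM against PEC (1.25 ± 0.92, SD, n = 4; 2.37-fold; adjusted p = 0.275), so TAM-3 was at 0. Usp4 was below 0 on both TAM1 and TAM7, at -1.19 and -0.70, but at 0.25 with the other coding. Usp15 was above 0 on both, at 2.13 and 1.61, but at -0.26 with the other coding. Also above 0 on both were Usp16, a histone deubiquitinase, at 0.55 and 2.33, Usp9x at 0.39 and 1.99 and Usp48 at 0.55 and 1.63, of which Usp48 was at -0.09 with 1 dye term per print. Usp48 and Usp47 were also above 0 on both arrays of LPS in TAM, at 4.32 and 0.19 and at 1.65 and 1.18. TAM-8 and TAM7 are of the same print as TAM-trial, and on them Usp48 was at 1.65 and 1.63 and Usp47 at 2.24 and 2.49. Of the v3p6 arrays, TAM-b had Usp48 at 1.69 and TAM1 had Usp47 at -0.39. The part of the print in these values was not tested. Usp18, which was left out of the set and removes the interferon-induced modifier Isg15, was at 2.14 and 1.99 with LPS in PEC. It was among the 29 LPS-induced genes by which the direction of the ratios was set, so its sign there is no separate result.

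Other genes of the pathway came from lists that the name rule does not cover. Of the 56 measured E3 ligases of 129 listed, 1 passed the adjusted test, in untreated TAM against PEC. It was Mdm2, the ligase of p53, which fell, at -1.99, -1.66, -1.31 and -1.84 on the untreated arrays (mean -1.70, adjusted p = 0.041), a call lost without any 1 of the 10 arrays (adjusted p from 0.064 to 0.147), and with the other coding (-0.87, adjusted p = 0.739). None of these lists had another member past the adjusted test in any of the 4 comparisons. The medians with LPS in PEC were 0.15 for the E3 ligases, 0.12 for 12 further deubiquitinases, 0.38 for 20 genes of ubiquitin-like modifiers and 0.23 for 15 ubiquitin receptors and unfoldase genes. In TAM against PEC with LPS they were -0.04, -0.01, -0.47 and -0.47. Of the last lists 16 of 20 and 14 of 15 genes were below 0, beside 3937 of all 8905 genes and features. Of proteasome genes outside the rule, Sem1, the smallest subunit of the regulatory particle, was at 1.91 and 1.12 on PEC1 and PEC2 and at -1.03 and -2.59 on TAM1 and TAM7. Nfe2l1 was at 0.62 and 1.62 and at -2.02 and -0.95 on the same arrays. That list had 3 measured genes, and the remaining gene had means of 0.18 and -0.27 in these comparisons, with arrays of opposite sign in each.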

How the data were processed

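The deposited values are log ratios, 1 for each feature and array, taken here as log2. Background correction, normalization, log base and dyes were not given in the sources used here. All 9596 features had a value on each of the 10 arrays. Signal intensities were not used here, so dim spots could not be filtered. The median of an array was between -0.199 and 0.022. Array groups, channel orders and print versions are those of the labels.

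Features of 1 gene were averaged, which gave 8905 genes or features. Means of the 4 direct comparisons, and the contrast of the LPS responses, were fitted to all arrays with limma 3.58.1 in R 4.3.3 (lmFit, eBayes; 6 residual and 3.841 prior degrees of freedom). P-values are two-sided and Benjamini-Hochberg adjusted over all 8905, at a threshold of 0.05; SDs are over arrays, and an unadjusted p under 0.05 was used for counts. The fit was tested on simulated data. Genes named were those past the threshold, the 5 highest and 5 lowest with 1 sign on all arrays of a comparison, and a panel of textbook members, and some with discordant arrays were added after their values were seen. The members and gene lists were chosen with earlier results of these data known. Promoters were matched by gene ID. Alternatives were the other coding of TAM-2R and TAM1, dye terms, loop fits, centring and scaling, correction for feature position, features singly, array print as a block or v3p6 alone, own arrays only, and leaving out each array.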

Additional observations from a re-analysis of the deposited data

Results flagged for a closer look

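In the comparison of untreated TAM with PEC, 34 named members had 4 arrays and were checked for a single array far from the others by Dixon's ratio, for which chance flags about 1 in 20 groups. In 2 of them TAM-3 stood apart. Uchl1 was at -1.635 on TAM-3, while the other arrays lay between -0.093 and 0.225. Usp46 was at 3.603 on TAM-3, with the others between 0.019 and 0.535, and its 2 features were at 7.22 and -0.01 on that array.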

How the results depend on the processing

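Of 352 values of set medians and member counts under alternatives, 323 stayed within 1 SD of the arrays, or within 1.5 times for counts. Some of these turned sign, such as the proteasome median with LPS in TAM (-0.533, and 0.036 without TAM-trial). That of untreated cells went from -0.052 to 0.277 without TAM-8. In the fit of the direct means, leaving out an array of another comparison cannot change a set median. The 323 are therefore no measure of robustness. With TAM-2R and TAM1 read the other way (the other coding) the proteasome median of TAM against PEC with LPS was -0.191, and with scaled arrays it was -1.301. The ubiquitin system median with LPS in PEC was -0.037 with features singly and -0.069 within print v3p6. In TAM against PEC with LPS it was -0.014 with a dye term for each print and 0.057 within v3p6. With LPS in TAM it was -0.121 with a dye term, -0.068 with 1 for each print and -0.149 within v3p6. A loop fit with a dye term called 2 members, Psmb6 (adjusted p = 0.047) and Psma4 (adjusted p = 0.048), in TAM against PEC with LPS, where the fit of the direct means called 0. The cause was not tested for any of these.

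Counts of proteasome genes with an unadjusted p under 0.05, added after the data were seen, moved further. Lower responses of TAM to LPS were 10, and 3 with the other coding, 17 with a loop fit with or without a dye term, and 0 within v3p6, which holds fewer arrays. Higher values with LPS in PEC were 11, and 7 with the other coding and 0 within v3p6. Lower values in TAM against PEC with LPS were 15, and 0 with the other coding, 4 with a dye term for each print and 2 within v3p6.

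Leaving out 1 array gave proteasome medians of 0.313 to 1.328 for LPS in PEC, -1.203 to -0.867 for TAM against PEC with LPS, -1.007 to 0.036 for LPS in TAM and -0.213 to 0.277 for untreated cells. The ubiquitin system medians were -0.069 to 0.071, 0.057 to 0.239, -0.149 to 0.07 and -0.019 to 0.077 in the same order. The counts were 1 to 12 for the lower responses, 3 to 11 for LPS in PEC and 3 to 14 for TAM against PEC with LPS. With LPS in PEC 0 to 2 members were called, Psmg1 (adjusted p = 0.034) and Usp47 (adjusted p = 0.05) without PEC1 and Usp2 (adjusted p = 0.041) without PEC2. Without 1 array, 0 members were called elsewhere.

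Genes among the 5 highest or lowest of a comparison turned sign in 6 cases. With the other coding, TAM against PEC with LPS gave -2.143 for Fbxl18, 2.34 for Psma6, 0.125 for Ube2s and -0.262 for Usp15. Usp48 was at -0.09 there with a dye term for each print, and Usp47 at -0.263 with LPS in TAM in the loop fit with a dye term. Among 2961 values of single genes under alternatives, 186 further ones turned sign, those of panel genes outside these ranks. No filter on missing values could be run, since none were missing. No paired analysis was possible because the comparisons share fewer than 2 replicate numbers.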
